A study of Mus musculus with 16 samples.

Results

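The 10 genes described here carry death receptor signalling and its restraint: the receptors Fas and Tnfrsf10b, the adaptors Fadd, Ripk1 and Traf2, the initiator caspase Casp8, its inhibitor Cflar (c-FLIP), and the inhibitors of apoptosis (IAPs) Birc2 (cIAP1), Birc3 (cIAP2) and Xiap. They were taken by name from the tables of TPM (transcript abundance scaled by transcript length and to the same total in each library), which list 17128 genes for plasmacytoid dendritic cells (pDCs) and 17721 for conventional ones (cDCs). All 10 were found in both tables, and all 10 passed the filter on low values. The cells were pDCs, cDC1s and cDC2s sorted from the spleens of C57BL/6 mice of 6 to 8 weeks, and RNA-seq covered, for each genotype, 3 libraries of pDCs, 2 of cDC1s and 3 of cDC2s (16 libraries). Both genotypes carry the floxed Trim33 alleles (Trim33 fl/fl), and the cKO mice carry Itgax-Cre as well, so that Cre comes from the promoter of CD11c and deletes Trim33 in cells once they express it. Mice with Itgax-Cre and intact Trim33 alleles are not among these groups, so an effect of Cre and one of Trim33 loss cannot be told apart. Each library is described as a biological repeat pooled from several mice, with more cKO than WT mice to a pool, so the p-values measure the spread between pools and not between single mice, and pool size and genotype cannot be told apart.

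Death receptors belong to the TNF receptor family. Ligand binding gathers Fas or the TRAIL receptor encoded by Tnfrsf10b, the adaptor FADD brings in caspase-8, and caspase-8 then cleaves and activates the executioner caspases. c-FLIP resembles caspase-8 but lacks its protease activity and holds the complex in check. In TNF receptor complexes, TRAF2 brings in the cIAP ubiquitin ligases, which modify RIPK1, favour NF-kB signalling over cell death, and keep noncanonical NF-kB low by promoting loss of the kinase NIK, while XIAP binds and inhibits active caspases directly. Birc3, Cflar and Fas are known NF-kB target genes, and Fas on DCs is known to help remove DCs that have presented antigen.

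The libraries held an estimated 18.02 to 20.16 M reads, at which 3 reads on a transcript of 2000 bases amount to 0.14 to 0.184 TPM. Every member's lowest value lay above this level (0.79 TPM, Fas in a cKO pDC library). Between libraries of one group Pearson's r was 0.9911 to 0.9967 over log2(TPM + 1), computed across genes, which are no independent replicates. WT cDC2 library 2 stood apart by its sum over 9 erythroid genes, 10745 TPM against at most 2302 TPM in the other cDC2 libraries. Trim33 was lower in every cKO library than in every WT library of its subset. It averaged 22.3 against 13.6 TPM in pDCs (adjusted p = 0.0301, past the threshold only with the replicate number as a block, 0.00361), 16.8 against 7.80 in cDC1s (0.000349) and 18.7 against 7.71 in cDC2s (0.000126, limma). By summed level, the sorted subsets carried their defining markers. The 10 pDC markers summed to at least 18950 TPM in pDC libraries and at most 599.5 in cDC libraries, the 10 cDC1 markers to at least 5814 TPM in cDC1 and at most 665 in cDC2 libraries, and the 10 cDC2 markers to at least 1717 TPM in cDC2 and at most 294 in cDC1 libraries. Single markers changed with genotype. By the limits given below, 3 of 10 cDC1 markers were called lower and 0 higher in cKO cDC1s (limma). Over all genes 6.56% were called lower and 15.8% higher there. Of the 10 cDC2 markers 4 were called lower and 2 higher in cKO cDC2s, against 3.56% and 3.59% of all genes. The cDC2 sums were 2181 to 2379 TPM in WT and 1717 to 1865 TPM in cKO cDC2s. The pDC libraries also held 3776 to 4330 TPM of the cDC1 list and 2249 to 2460 TPM of the cDC2 list. Single genes of cDC1s differed widely in pDCs. Mean Irf8 was 3717 TPM for WT pDCs and 1737 TPM for WT cDC1s. For Xcr1 the same groups gave 2.34 and 305 TPM, and for Clec9a 220 and 541 TPM. Among cKO cells, pDCs averaged 3521 TPM of Irf8 and 1.87 TPM of Xcr1. Whether the pDC libraries contained cDCs was not tested.

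All 10 members were present in all 3 subsets. Birc3 was the most abundant member in each of the 6 groups, with group means of 100.4 to 223 TPM. Casp8 had group means of 50.7 to 79.2 TPM, and Fas, Tnfrsf10b and Fadd held the 3 lowest places in all 6 groups. TPM is scaled by transcript length, so these levels can be set side by side across genes. Fas spread most over the groups, with 21.2-fold between its highest group mean (WT cDC1s) and its lowest (cKO pDCs). Birc2 spread 4.02-fold and Cflar 3.84-fold, both between WT cDC2s and cKO cDC1s. Ripk1 spread least, 1.29-fold. The pDC and cDC tables were made separately, so levels were compared across them without a test.

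**Figure D1:**
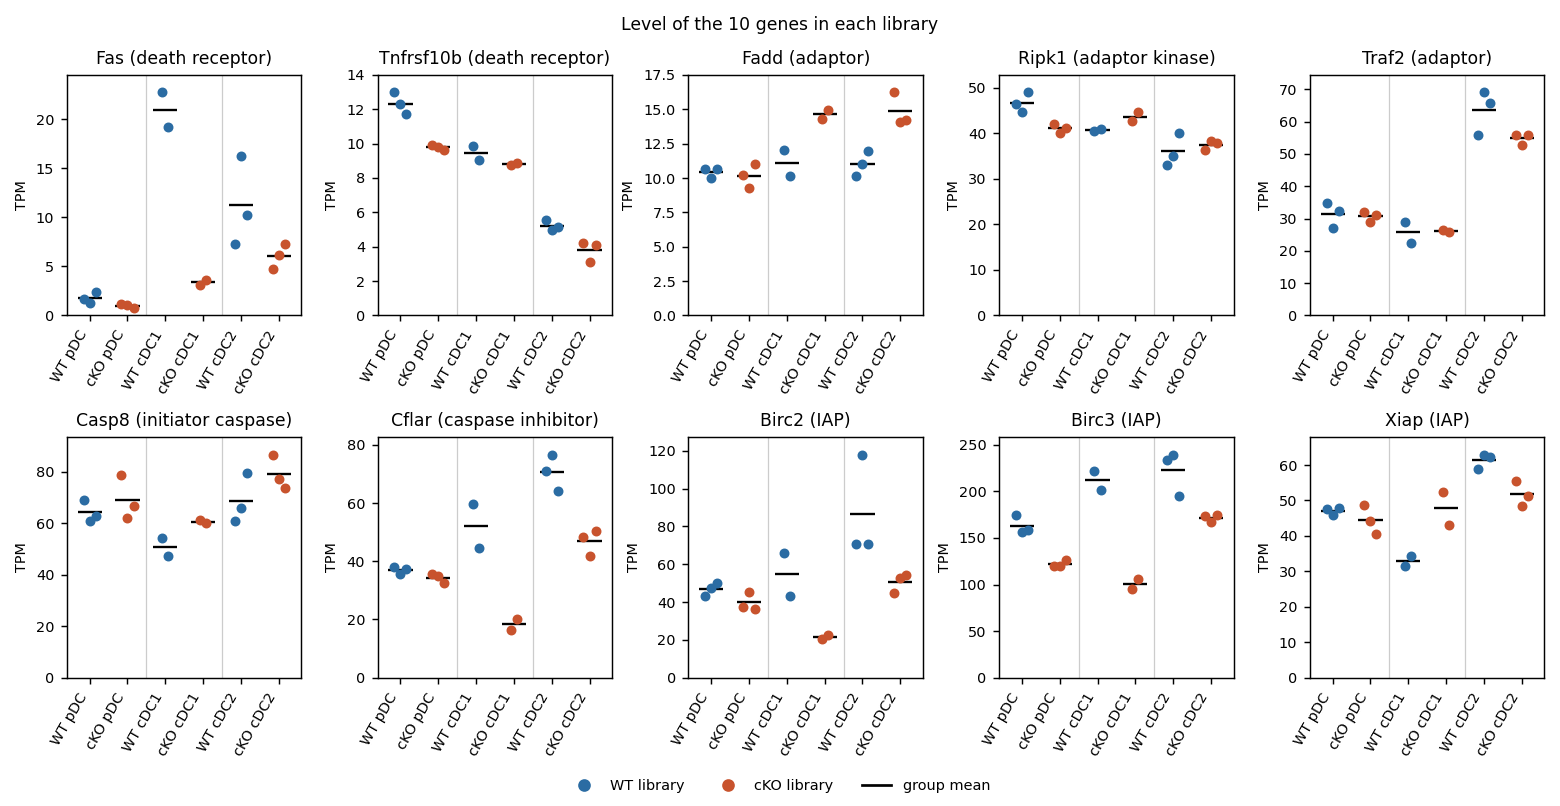
TPM (vertical axes, from 0) of the 10 genes in each of 16 libraries, grouped by genotype and subset along the horizontal axis, with points for libraries and black lines for group means. Fas, Cflar, Birc2 and Birc3 are lower in both cKO cDC1 libraries than in both WT cDC1 libraries, and Traf2 stands higher in all cDC2 libraries (52.7 to 69.1 TPM) than elsewhere.

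Calls among the members were made in cDC1s, and none in cDC2s or pDCs. Of the 10 members, 4 fell in cKO cDC1s (Fas, Cflar, Birc2 and Birc3) and 1 rose (Xiap). A gene counted as called when its adjusted p from limma was at most 0.01 and its absolute log2 fold change on the log2(TPM + 1) scale at least 0.5. Over all 11411 genes tested, 22.4% were called in cDC1s, 6.56% lower and 15.8% higher, so the share of members that fell was above that of all genes and the share that rose was not. Values as deposited carried a shift: the median log2 fold change of all genes was 0.17 in cDC1s, and 0.016 after median-of-ratios scaling, which turned 1806 higher and 749 lower calls into 1067 and 1070. The 5 called members became 4, all lower, under that scaling. Changes in cDC1s were therefore also taken relative to the median of all genes. They were −1.62 for Cflar, −1.45 for Birc2, −1.24 for Birc3 and −0.26 for Tnfrsf10b. For Fadd the value was 0.20, for Casp8 0.08, for Ripk1 −0.08 and for Traf2 −0.14. Those of Fas and Xiap are given below.

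Among the receptors, Fas showed the largest change of any member. It stood at 22.7 and 19.2 TPM in the WT cDC1 libraries and at 3.07 and 3.65 TPM in the cKO cDC1 libraries, so the genotypes were far apart. The group means were 20.9 ± 2.50 and 3.36 ± 0.410 TPM (SD, n = 2 each). The log2 fold change was −2.33 (SE 0.30, adjusted p = 0.000336, limma), or −2.50 relative to the median of all genes. Tnfrsf10b, the only mouse TRAIL receptor with a death domain, behaved otherwise. It measured 9.86 and 9.04 TPM in WT and 8.77 and 8.86 TPM in cKO cDC1s, a log2 fold change of −0.09 (95% interval −0.41 to 0.23) that did not pass the test.

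The adaptors and the caspase gave no call in cDC1s. Fadd, which joins the receptors to caspase-8, ranged from 10.1 to 12.01 TPM in WT and from 14.3 to 14.97 TPM in cKO libraries, without overlap (log2 fold change 0.38, adjusted p = 0.0424, limma). Casp8 ranged from 47.2 to 54.2 TPM in WT and from 60.01 to 61.2 TPM in cKO libraries (log2 fold change 0.26, adjusted p = 0.169). Ripk1, the kinase that the cIAPs modify, lay at 40.5 to 41.0 TPM in WT and at 42.7 to 44.6 TPM in cKO libraries, and its fold change of 0.10 turned negative both with median-of-ratios scaling and with quantile normalization. Traf2 overlapped between genotypes (22.4 to 29.0 against 25.9 to 26.4 TPM), and its fold change of 0.03 turned negative under the same scalings and with FPKM.

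Cflar, whose product restrains caspase-8, measured 59.6 and 44.7 TPM in WT cDC1s and 16.5 and 20.3 TPM in cKO cDC1s. Both cKO values lay far below both WT values. The group means of 52.1 ± 10.5 and 18.4 ± 2.67 TPM (SD, n = 2 each) gave −1.45 on the log2 scale (SE 0.16, adjusted p = 0.000189, limma). Casp8 lies next to Cflar on chromosome 1, 36348 bases away, and the ratio of Cflar to Casp8 TPM within a library was 1.10 and 0.946 in WT cDC1s but 0.270 and 0.338 in cKO cDC1s. This ratio does not depend on the scaling of the library, and its values in the cKO cDC1s were the lowest of all 16 libraries.

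The 2 cIAP genes fell and Xiap rose in the same libraries. Birc2 measured 66.1 and 43.4 TPM in WT cDC1s and 20.4 and 22.7 TPM in cKO cDC1s, with wide spread in WT (54.8 ± 16.1 against 21.5 ± 1.58 TPM, SD, n = 2 each). Its log2 fold change was −1.28 (SE 0.26, adjusted p = 0.00349, limma). The call was lost without WT cDC1 library 1 (log2 fold change −0.98, adjusted p = 0.032), without cKO cDC1 library 1 (−1.21, 0.0333), without cKO cDC1 library 2 (−1.35, 0.0185) and without the filter on low values (−1.28, 0.0102). Birc3 measured 222 and 202 TPM in WT and 94.8 and 106 TPM in cKO cDC1s, which gave −1.07 on the log2 scale (SE 0.12, adjusted p = 0.00017, limma). The calls of Fas, Cflar and Birc3 held under every one of the 21 alternatives run, among them each fit that left out 1 of the 10 cDC libraries. Xiap measured 31.6 and 34.4 TPM in WT and 52.5 and 43.1 TPM in cKO cDC1s (log2 fold change 0.51, SE 0.12, adjusted p = 0.00697, limma). That fold change sits just inside the limit and came to 0.34 relative to the median of all genes. The call was lost in 10 of 21 alternatives, among them FPKM (0.44), median-of-ratios scaling (0.35), quantile normalization (0.34), the replicate block (adjusted p = 0.0144) and the fits without WT cDC1 library 1, WT cDC1 library 2, cKO cDC1 library 1 or cKO cDC2 library 3 (adjusted p of 0.0145 to 0.0811, limma). Its direction held in all 21.

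**Figure D2:**
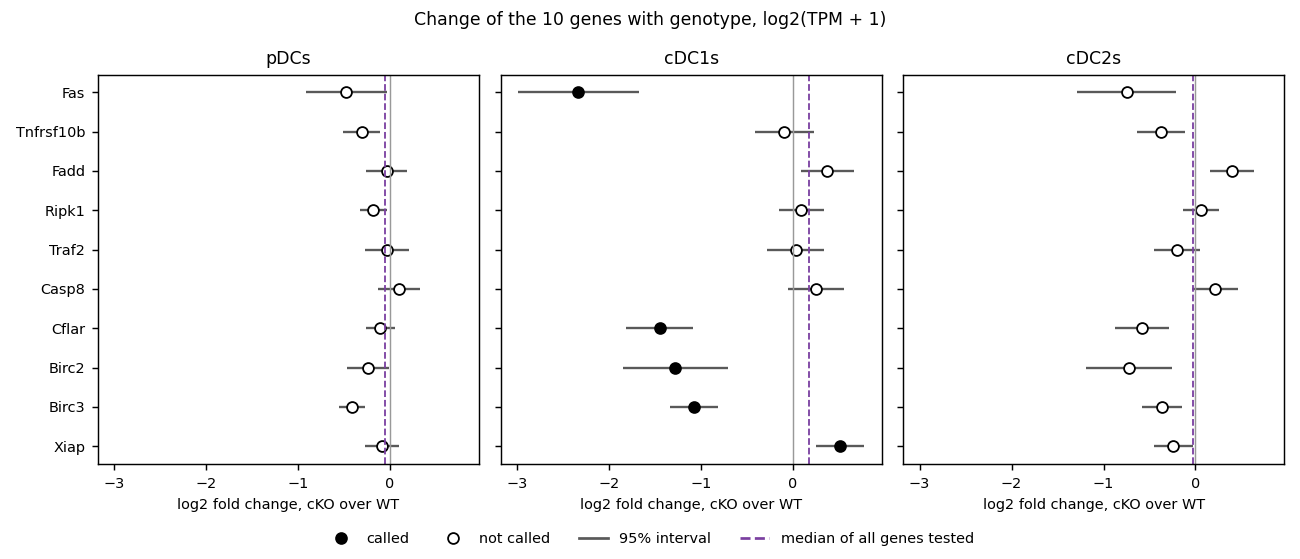
Log2 fold change on the log2(TPM + 1) scale (horizontal axes) of the 10 genes in cKO over WT libraries, one panel per subset, with filled points for called genes, bars for 95% intervals and a dashed line at the median of all genes tested. Only the cDC1 panel holds called genes, Fas (−2.33), Cflar (−1.45), Birc2 (−1.28), Birc3 (−1.07) and Xiap (0.51), of which Xiap was not called under the other scalings.

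Birc2 and Birc3 are paralogues that lie 10336 bases apart on chromosome 9 (Birc2 at chr9:7818226-7837131 and Birc3 at chr9:7847468-7873205, GRCm38.p6, the assembly that mm10 represents), while Fas lies at chr19:34290647-34327775. The sequence upstream of each start is shown, because the 2 IAP genes fell together and Fas fell most. The bases are from RefSeq for GRCm38.p6, are cut off before the first base of any annotated transcript, and are printed 5′ to 3′ on the strand of the gene, at chr19:34290409-34290646 (plus strand), chr9:7837132-7837307 (minus strand) and chr9:7873206-7873420 (minus strand). Capitals mark the single match to GAGGAA, a core recognised by the DC factor PU.1, which here lies on the opposite strand and so reads TTCCTC.
Fas: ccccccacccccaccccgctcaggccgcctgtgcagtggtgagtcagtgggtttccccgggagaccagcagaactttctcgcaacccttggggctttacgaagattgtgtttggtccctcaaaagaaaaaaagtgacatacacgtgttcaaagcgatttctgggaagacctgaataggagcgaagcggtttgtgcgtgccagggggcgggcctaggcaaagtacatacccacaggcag
Birc2: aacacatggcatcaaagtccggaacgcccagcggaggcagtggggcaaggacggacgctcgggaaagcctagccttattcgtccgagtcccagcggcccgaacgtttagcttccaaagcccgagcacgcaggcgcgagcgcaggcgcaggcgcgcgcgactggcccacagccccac
Birc3: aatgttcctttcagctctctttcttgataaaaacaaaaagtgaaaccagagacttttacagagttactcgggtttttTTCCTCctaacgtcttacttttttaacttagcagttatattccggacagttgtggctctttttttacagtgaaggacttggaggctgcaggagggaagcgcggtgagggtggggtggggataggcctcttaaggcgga
The Birc2 stretch is rich in G and C (67.0%, with 21 CG dinucleotides in 176 bases), as promoters within CpG islands are. The Birc3 stretch is not (44.2%, with 6 in 215 bases), and Fas lies between (56.7%, 11 in 238 bases). Within the 250 bases before the start, GAGGAA on either strand was found for 4 of the 9 members that the promoter table lists (Birc3, Traf2, Ripk1 and Xiap). Some members have several start sites, and counted by window it was found in 5 of their 13 promoters, against 23.3% of all 32851 promoters in the table. The NF-kB consensus was found in 0 of the 13 and in 7.25% of all promoters. With 0 matches of the second there was no overlap between the motifs, and a missing match says only that those letters are not in this window. Tnfrsf10b is not in the table.

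The Birc2 and Birc3 block has a further neighbour, Tmem123, a transmembrane gene of the DC maturation list that lies 23892 bases before Birc2. It averaged 432 ± 146 TPM in WT and 145.8 ± 10.9 TPM in cKO cDC1s (SD, n = 2 each) and fell with a log2 fold change of −1.52 (adjusted p = 0.00518, limma). On the other side of Birc3, Yap1 was too low to be tested. Of the 12 tested genes that border or overlap a member, 3 were called in cDC1s, a share close to the 22.4% of all genes. Besides Tmem123 these were Stag2 beside Xiap (0.51, adjusted p = 0.00965, limma) and Nqo2 near Ripk1 (0.64, adjusted p = 0.00275). Relative to the median of all genes, Stag2 came to 0.34 and Nqo2 to 0.47. Serpinb6a overlaps the start of Ripk1, and the counting was not stated to use strand, so reads in the overlap could have gone to either gene. It was not called in any subset.

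In cDC2s none of the members passed the test (0 of 10, against 7.15% of all genes, limma), and 7 of 10 had an unadjusted p under 0.05, against 34.1% of all genes. The 4 members that fell in cDC1s also had negative fold changes here. Cflar measured 71.1, 76.7 and 64.2 TPM in WT and 48.4, 41.7 and 50.5 TPM in cKO cDC2s, without overlap (log2 fold change −0.58, SE 0.13, adjusted p = 0.014). Birc3 measured 234, 239.6 and 195 TPM in WT and 173, 168 and 174 TPM in cKO cDC2s, again without overlap (−0.37, SE 0.10, adjusted p = 0.025). Both p-values missed the limit of 0.01. Birc2 measured 70.8, 118 and 70.7 TPM in WT and 44.7, 52.9 and 54.4 TPM in cKO cDC2s (−0.72, SE 0.21, adjusted p = 0.0373), and WT cDC2 library 2 stood far above all others. The same library held the highest WT value of Fas, which measured 7.26, 16.2 and 10.2 TPM in WT and 4.69, 6.14 and 7.30 TPM in cKO cDC2s. The Fas ranges overlapped (−0.75, adjusted p = 0.0537). Without that library the cDC2 fold changes were −0.47 for Fas (adjusted p = 0.136), −0.48 for Birc2 (0.0881), −0.52 for Cflar (0.047) and −0.31 for Birc3 (0.0793, limma).

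The other members were not called in cDC2s either. Fadd ranged from 10.2 to 11.99 TPM in WT and from 14.1 to 16.2 TPM in cKO cDC2s (log2 fold change 0.40, adjusted p = 0.0278, limma). Its effect in cDC1s minus that in cDC2s had a 95% interval of −0.39 to 0.36. Tnfrsf10b ranged from 4.98 to 5.54 TPM in WT and from 3.14 to 4.22 TPM in cKO cDC2s (−0.37, adjusted p = 0.0485). Xiap was the member whose sign differed from cDC1s with no overlap in either subset, at 58.8 to 63.0 TPM in WT and 48.6 to 55.6 TPM in cKO cDC2s (−0.24, adjusted p = 0.111). Casp8 (0.21), Traf2 (−0.20) and Ripk1 (0.06) had overlapping libraries. With the limit on adjusted p at 0.05 and none on the fold, 5 members would have been called in cDC2s: Cflar, Birc3, Birc2 and Tnfrsf10b lower and Fadd higher. The share of all genes at this wider limit was not counted, so the 5 cannot be set against it. The WT and cKO libraries did not overlap for 9 of 10 members in cDC1s and 6 of 10 in cDC2s, where 76.2% and 35.5% of all genes tested did not overlap.

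In pDCs no member passed the test (0 of 10, against 1.05% of all genes, limma). At the same time 5 of 10 had an unadjusted p under 0.05 (20.8% of all genes), and 4 of 10 did not overlap between genotypes (27.5% of all genes). Birc3 came nearest to a call. It measured 174, 157 and 158 TPM in WT and 120.4, 120.1 and 126 TPM in cKO pDCs, so that all cKO libraries lay below all WT libraries (log2 fold change −0.41, SE 0.06, adjusted p = 0.0122, limma). With the replicate block, under which 2.96% of all genes were called, its adjusted p was 0.00453, and its fold change stayed under the limit. Tnfrsf10b, highest in pDCs among the subsets, measured 13.0, 12.3 and 11.7 TPM in WT and 9.91, 9.81 and 9.61 TPM in cKO pDCs (−0.31, adjusted p = 0.0982). Fas was near 1 TPM in both genotypes of pDCs, at 1.65, 1.31 and 2.42 TPM in WT and 1.13, 1.05 and 0.790 TPM in cKO libraries (−0.47, adjusted p = 0.208). Ripk1 ranged from 44.8 to 49.0 TPM in WT and from 40.1 to 42.1 TPM in cKO pDCs (−0.18, adjusted p = 0.17). Cflar, which fell most among the inhibitors in cDC1s, measured 35.6 to 38.1 TPM in WT and 32.6 to 35.6 TPM in cKO pDCs, a log2 fold change of −0.10 with a 95% interval of −0.26 to 0.05. Birc2 (−0.24), Xiap (−0.09) and Casp8 (0.10) overlapped between genotypes, as did Traf2 (−0.03) and Fadd (−0.03), whose signs turned with median-of-ratios scaling or quantile normalization.

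Whether the genotype effect differed between the cDC subsets was tested with the interaction contrast, the cDC1 effect minus the cDC2 effect. No member was called (0 of 10, against 2.56% of all genes, limma), and 4 of 10 had an unadjusted p under 0.05, against 30.7% of all genes. The largest differences were those of Fas (−1.58, SE 0.38, adjusted p = 0.0296) and Cflar (−0.86, SE 0.21, adjusted p = 0.0307). Birc3 differed by −0.70 (SE 0.15, adjusted p = 0.0205) and Xiap by 0.75 (SE 0.15, adjusted p = 0.0158), in opposite directions. For Birc2 the difference was −0.56, with a 95% interval of −1.29 to 0.18. Without WT cDC2 library 2 the Fas difference was called (−1.86, adjusted p = 0.00654). All 10 differences contain the shift of the cDC1 values, with a median over all genes of 0.22, and relative to it those of Fas, Cflar, Birc3 and Xiap were −1.80, −1.08, −0.92 and 0.54.

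In WT mice 3 of the 10 members differed between the cDC subsets, a share close to the 31.7% of all genes called (10.9% higher and 20.8% lower in cDC1s, limma). Traf2 was lower in WT cDC1s, at 29.0 and 22.4 TPM against 55.8, 69.1 and 65.7 TPM in WT cDC2s (log2 difference −1.28, SE 0.13, adjusted p = 1.71e-05). Xiap was lower as well, at 31.6 and 34.4 TPM against 58.8, 63.0 and 62.2 TPM (−0.87, SE 0.11, adjusted p = 8.98e-05). Tnfrsf10b was higher, at 9.86 and 9.04 TPM against 5.54, 4.98 and 5.15 TPM (0.75, SE 0.13, adjusted p = 0.000946). No WT library of one subset reached into the other for these 3 genes, although Tnfrsf10b lost its call without WT cDC1 library 1 (0.69, adjusted p = 0.0124). Fas averaged 20.9 TPM in WT cDC1s and 11.2 TPM in WT cDC2s (0.90, adjusted p = 0.0183), and it was called once WT cDC2 library 2 was left out (1.18, adjusted p = 0.00171) and under median-of-ratios scaling (1.09, adjusted p = 0.00675) or quantile normalization (1.11, adjusted p = 0.00726). Under median-of-ratios scaling the median of all genes, −0.17 as deposited, was 0.013, and 1819 genes were called higher and 1718 lower in cDC1s in place of 1241 and 2371. The signs of the 3 called members held under that scaling.

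By subset, the order of the levels differed from member to member. Cflar, Birc2, Birc3 and Xiap were highest in WT cDC2s, where for Birc3 the neighbour in the order, WT cDC1s (212 ± 14.5 against 223 ± 24.2 TPM, SD, n = 2 and 3), did not differ beyond the spread. Fas was highest in WT cDC1s, Traf2 in WT cDC2s, and Tnfrsf10b and Ripk1 in WT pDCs. Casp8 and Fadd were highest in cKO cDC2s, with Fadd at 14.9 ± 1.2 TPM there and at 14.6 ± 0.488 TPM in cKO cDC1s (SD, n = 3 and 2), a gap within the spread. For Cflar, Birc2 and Birc3 the lowest place was held by cKO cDC1s, below both groups of pDCs, whereas in WT cDC1s each of the 3 was above the WT pDC mean.

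**Figure D3:**
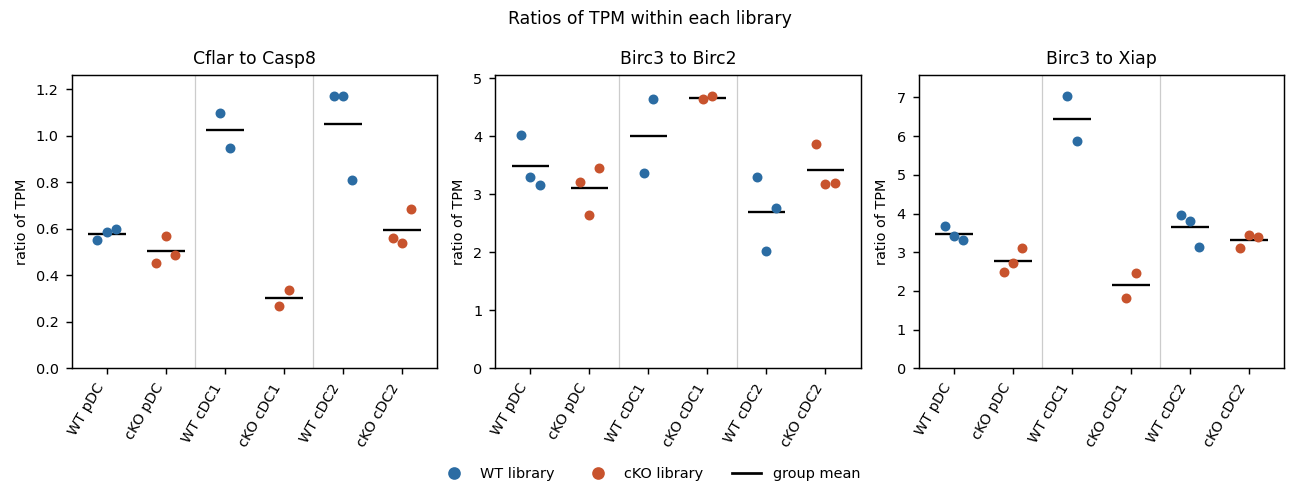
Ratios of TPM within each library (vertical axes, from 0) by group along the horizontal axis, with points for libraries and black lines for group means. The ratio of Cflar to Casp8 is 0.270 and 0.338 in the cKO cDC1s and at least 0.453 elsewhere, and the ratio of Birc3 to Xiap is 7.03 and 5.87 in WT cDC1s and 1.81 and 2.47 in cKO cDC1s.

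The ratio of Cflar to Casp8 averaged 1.02 in WT cDC1s and 1.05 in WT cDC2s but 0.578 in WT pDCs. In cDC2s it was 1.17, 1.17 and 0.810 in WT libraries and 0.559, 0.540 and 0.685 in cKO libraries, so the genotypes did not overlap. In pDCs it was 0.551 to 0.597 in WT and 0.453 to 0.567 in cKO libraries, which overlapped. The ratio of Birc3 to Birc2 stayed between 2.03 and 4.69 in all libraries, and its WT and cKO ranges overlapped in pDCs (3.16 to 4.03 against 2.65 to 3.46) and in cDC2s (2.03 to 3.30 against 3.17 to 3.87). In cDC1s it was 3.36 and 4.65 in WT and 4.64 and 4.69 in cKO libraries. Birc3 thus stood above Birc2 in every library. No test was made on these ratios.

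The remaining genes of the pathway were read from a list of 63 ligands, receptors, adaptors, ubiquitin enzymes and kinases with their partners, caspases, IAP-like genes and inhibitors, of which 58 were tested in cDCs and 56 in pDCs. In cDC1s, 10 of the 58 were called, 5 lower and 5 higher, with a median log2 fold change of −0.01 over the list against 0.17 over all genes, and a share called that was no higher than that of all genes. The even split depended on the shift of the cDC1 values, since median-of-ratios scaling and quantile normalization each gave 7 lower and 1 higher. In cDC2s, 4 of 58 were called (1 lower, 3 higher, median −0.07), close to the 7.15% of all genes (3.59% higher, 3.56% lower). In pDCs 1 of 56 was (higher, median −0.08), against 1.05% of all genes. In pDCs same-numbered libraries deviated together, and with the replicate block 5 of 56 were called there (Bid, Birc5, Tnf and Zbp1 higher, Septin4 lower). Under the block 2.96% of all genes were called.

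Among the ligands, Tnf, the cytokine whose receptor complexes hold Traf2, Ripk1 and the cIAPs, fell in both cDC subsets. It averaged 98.4 TPM in WT and 13.0 TPM in cKO cDC1s (log2 fold change −2.87, adjusted p = 0.000128, limma), and 144 against 52.5 TPM in cDC2s (−1.38, adjusted p = 0.00443). The cDC2 call of Tnf was lost when any one cKO cDC2 library was left out. Ltb, which encodes lymphotoxin beta and is also counted among the cDC2 markers, fell in cDC1s from 38.7 to 22.1 TPM (−0.78, adjusted p = 0.00196). Tnfsf12, which encodes the ligand TWEAK, rose in cDC2s from 3.66 to 7.88 TPM (0.92, adjusted p = 0.00697). Among the receptors, Tnfrsf1b, the TNF receptor that lacks a death domain and binds TRAF2, fell in cDC1s from 56.1 to 22.0 TPM (−1.28, adjusted p = 0.00112). Tnfrsf23, a mouse TRAIL decoy receptor, fell there from 4.80 to 2.65 TPM (−0.67, adjusted p = 0.00786). Tnfrsf21, which encodes death receptor DR6, rose in cDC2s from 12.9 to 25.9 TPM (0.95, adjusted p = 0.00151), and in cDC1s averaged 31.3 TPM in WT and 29.6 TPM in cKO libraries.

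Among the adaptors, Traf1, a partner of TRAF2 and the cIAPs, fell in cDC1s from 279 to 87.9 TPM (−1.63, adjusted p = 0.000538, limma). Casp8ap2, named for an interaction with caspase-8, rose from 9.21 to 15.4 TPM (0.68, adjusted p = 0.00305). The necroptosis genes Ripk3 and Mlkl were higher where they passed the test. Ripk3, the kinase that RIPK1 engages when caspase-8 is inactive, rose in cDC1s from 34.2 to 51.5 TPM (0.58, adjusted p = 0.00803) and in cDC2s from 22.3 to 39.2 TPM (0.79, adjusted p = 0.00151). Mlkl, its substrate that permeabilises the membrane, rose in cDC1s from 1.36 to 3.79 TPM (1.04, adjusted p = 0.00695) and in cDC2s gave 0.88 (adjusted p = 0.0125). Relative to the median of all genes the cDC1 changes of Ripk3 and Mlkl were 0.41 and 0.86. The cDC1 call of Ripk3 was lost with median-of-ratios scaling (0.41, adjusted p = 0.0235), with quantile normalization (0.39, 0.0333) and without the trend (0.58, 0.0104), while its cDC2 call held in all 3. Of the 5 pathway genes called higher in cDC1s, Xaf1 alone kept its call under the first of these and Mlkl alone under the second, and Casp8ap2 (0.52 and 0.50) and Birc5 (0.76 and 0.75) lost theirs under both. The ubiquitin group and the kinase group each hold enzymes and their partners. None of the 8 genes of the first and none of the second (10 tested in cDCs, 11 in pDCs) was called in any subset (limma). The kinase genes Chuk and Map3k14 (NIK) were, however, called lower in cDC1s under both other scalings. At an unadjusted p under 0.05 there were 2 genes of the ubiquitin group and 5 of the kinase group in cDC1s, 3 and 7 in cDC2s, and 1 and 1 in pDCs. Of all genes, 48.6%, 34.1% and 20.8% were in the 3 subsets.

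Of the genes near the IAPs, Birc5, which encodes survivin, a protein of dividing cells, rose in cDC1s from 38.8 to 72.3 TPM (0.93, adjusted p = 0.00925, limma) and in pDCs from 3.00 to 21.0 TPM (2.36, adjusted p = 0.00683). The pDC call of Birc5 rested on single libraries: leaving out any one of the 3 WT pDC libraries, or cKO pDC library 2, left 0 of 56 genes called. Xaf1, an interferon-induced partner of XIAP, rose in cDC1s from 10.6 to 22.0 TPM (0.99, adjusted p = 0.00763). In cDC1s only 3 of the 10 pathway calls held without WT cDC1 library 1 (Tnf, Tnfrsf1b and Traf1), 2 held without cKO cDC1 library 1 (Tnf and Traf1), and 3 without cKO cDC1 library 2 (Tnf, Traf1 and Ltb). The calls numbered 5 without cKO cDC2 library 1 and 6 without cKO cDC2 library 3. In cDC2s the 4 calls became 2 without cKO cDC2 library 1 (Ripk3 and Tnfrsf21) and 0 without cKO cDC2 library 3. Without cKO cDC2 library 2 they numbered 5, and Tnf was not among them. The cDC2 call of Tnf was thus lost without any one of the cKO cDC2 libraries. It was also lost with the replicate block and without the filter on low values.

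**Figure D4:**
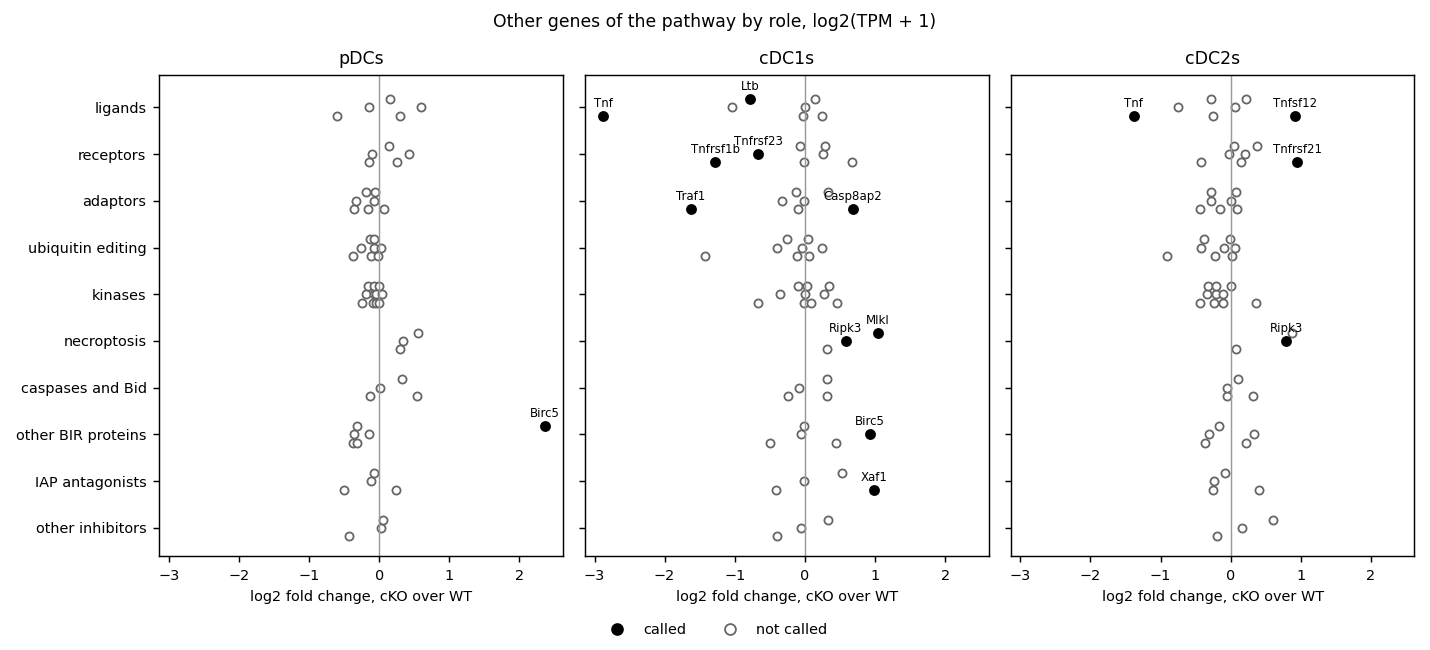
Log2 fold change on the log2(TPM + 1) scale (horizontal axes) of the other tested pathway genes in cKO over WT libraries, by role (rows) and subset (panels), with 1 point per gene, shifted up or down within a row only to separate points. Filled, named points are called: Tnf is lowest in both cDC panels (−2.87 and −1.38), and Ripk3 is called higher in both (0.58 and 0.79), in cDC1s not under the other scalings.

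The genes most like the called members over the 10 cDC libraries were found by Pearson's r on log2(TPM + 1), as a description in which libraries of a group share their subset and genotype. For Fas they were Cacnb3 (r = 0.980), Nrbp1 (0.980) and Eno2 (0.976), and for Cflar they were Gbp4 (0.988), Mreg (0.987) and Ccl5 (0.984). For Birc2 they were Hemk1 (0.992), its chromosomal neighbour Tmem123 (0.988) and Ephx2 (0.978), and for Birc3 Spsb1 (0.988), Ypel5 (0.979) and Rmdn1 (0.978). Cacnb3, Ccl5 and Tmem123 belong to the DC maturation list. Xiap was matched instead by Nfatc3 (0.979), Cep135 (0.977) and Uhmk1 (0.976). Of these 15 genes 9 were called in cDC1s, all lower, with Mreg from 66.2 to 5.495 TPM (−3.37, adjusted p = 1.63e-06, limma), and 2 in cDC2s (Mreg and Gbp4, lower). Over all genes 22.4% were called in cDC1s and 7.15% in cDC2s. The 15 genes were picked for likeness to called members in the same libraries, so their calls follow from that choice and are no separate result. Among the members themselves, Cflar correlated with Birc3 at r = 0.973 and with Birc2 at 0.959, and Birc2 with Birc3 at 0.926, over the same libraries.

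Genes of mature, migratory DCs moved in the same libraries as the members that fell. Of 20 such genes 17 fell in cDC1s and 5 in cDC2s, with none called in the 17 tested in pDCs (limma; 5 had an unadjusted p under 0.05, against 20.8% of all genes). Over all genes 6.56% fell in cDC1s, 3.56% fell in cDC2s and 1.05% were called in pDCs. Ccr7, the receptor that guides mature DCs to lymph nodes, averaged 556 TPM in WT and 26.1 TPM in cKO cDC1s (log2 fold change −4.37, adjusted p = 8.25e-05, limma) and 269 against 69.4 TPM in cDC2s (−1.91, adjusted p = 0.0044). In cDC1s Fscn1 (−2.88), Il12b (−4.18), Cd40 (−0.94) and Relb (−1.56), the NF-kB subunit of the noncanonical route, were also called. The summed level of the 20 genes was 5144 and 3416 TPM in WT and 1037 and 1199 TPM in cKO cDC1s, 3798 to 5049 against 2319 to 2835 TPM in cDC2s, and 728 to 764 against 696 to 752 TPM in pDCs. WT cDC1 library 1, with the higher sum, also held the higher WT value of Fas, Cflar, Birc2 and Birc3, and WT cDC2 library 2, with the highest sum in cDC2s, held the highest WT cDC2 value of these 4 genes. The same libraries held the highest erythroid sums of their WT groups, 3193 TPM (385 TPM in WT cDC1 library 2) and 10744.5 TPM. Of the 4 genes, Fas alone did not follow the maturation sum through all WT cDC2 libraries. It measured 7.26 TPM in library 1 (sum 4239 TPM) and 10.2 TPM in library 3 (sum 3798 TPM). Birc2 was almost equal in those libraries (70.80 and 70.73 TPM). In cKO cDC2 libraries 1, 2 and 3 the sum rose in that order (2319, 2583 and 2835 TPM), and Fas and Birc2 rose with it. Cflar (48.4, 41.7 and 50.5 TPM) and Birc3 (173, 168 and 174 TPM) did not follow the sum there. The part of mature cells or of erythroid RNA in the changes of the members was not tested. In bulk libraries, fewer cells that express a gene and less of its RNA per cell cannot be told apart.

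**Figure D5:**
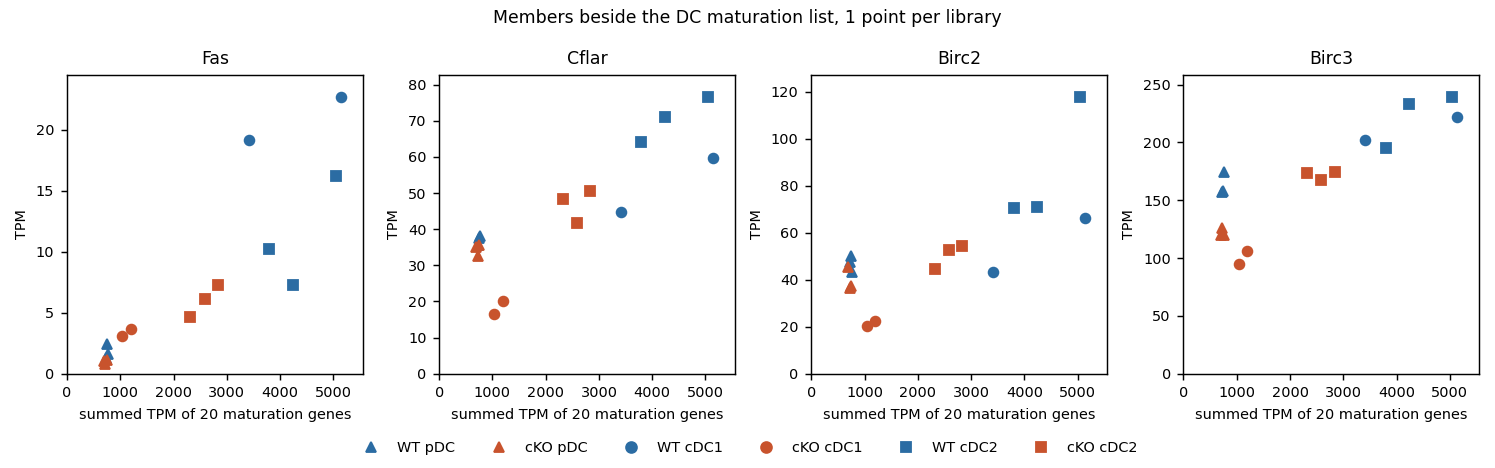
TPM of Fas, Cflar, Birc2 and Birc3 (vertical axes, from 0) against the summed TPM of 20 genes of mature DCs (horizontal axes) in each of 16 libraries, with colour for genotype and symbol for subset. The cKO cDC1s lie at sums of 1037 and 1199 TPM and at low member values, and the pDCs, at sums of up to 764 TPM, hold little Fas (at most 2.42 TPM) but more Birc3 (120.1 to 174 TPM) than the cKO cDC1s.

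Other lists moved as well. Immediate-early genes, which rise when tissue is handled, summed to 8623 and 14320 TPM in WT and to 5400 and 5868 TPM in cKO cDC1s, and 6 of 15 fell, against 6.56% of all genes. In cDC2s they reached 11420 to 30150 TPM in WT and 7656 to 8713 TPM in cKO libraries, with 2 of 15 called, both lower, against 3.56% of all genes. Marker sums in WT and cKO cDC1s were 10.5 to 13.7 and 6.85 to 8.29 TPM for the 7 T cell genes in the table, 25.01 to 34.6 and 18.6 to 18.8 TPM for 9 B cell genes, 14.3 to 23.8 and 35.2 to 40.3 TPM for 8 NK cell genes, and 557 to 783 and 512 to 539 TPM for 14 monocyte genes. The 9 neutrophil genes summed to 1.84 to 17.3 TPM in WT and 23.0 to 43.3 TPM in cKO cDC1s. Ly6g was at 0 in both WT cDC1 libraries and Elane at 0 in both cKO cDC1 libraries. In pDCs the neutrophil sums were 9.03 to 29.8 TPM in WT and 30.5 to 138 TPM in cKO libraries. In cDC2s they were 8.82 to 35.3 TPM in WT and 20.3 to 84.5 TPM in cKO libraries. Of the 5 neutrophil genes tested, 0 were called in each subset (limma). The 4 platelet genes reached at most 6.82 TPM in cDC1s. In cDC2s the monocyte genes summed to 1455 to 2137 TPM in WT and 2827 to 3787 TPM in cKO libraries. In pDCs they summed to 5055 to 5704 TPM in WT and 5894 to 6089 TPM in cKO libraries. Of the 13 monocyte genes tested in pDCs 0 were called, and 8 had an unadjusted p under 0.05, against 20.8% of all genes (limma). In pDCs the T cell genes summed to 505 to 800 TPM in WT and 317 to 388 TPM in cKO libraries. The single genes did not all go with the sum. Of the 3 T cell genes tested there, 1 had a negative fold change and 1 was called, higher, against 1.05% of all genes called (limma). The median log2 fold change of the 3 was 1.034. The part of these lists in the values of the members was not tested.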

How the data were processed

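RNA of sorted splenic DCs was read by BGISEQ-500 as single-end reads of 50 bases. The authors filtered reads with SOAPnuke and estimated expression per gene with Bowtie2 2.2.5 and RSEM 1.2.12 (the submitters' notes also name HISAT2 2.0.4 and mm10). The release of the transcript reference was not given in the sources used here. TPM values were deposited in separate tables for pDCs and cDCs, and FPKM values were deposited for the same libraries. Groups came from the sample titles, and all 32 value columns were mapped. Gene IDs were named from RefSeq (GRCm38.p6).

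The values are not counts, so log2(TPM + 1) was fitted with limma 3.58.1 in R 4.3.3 (lmFit, eBayes with trend) on all genes with a mean of at least 1 TPM, 11299 in pDCs (6 libraries) and 11411 in cDCs (10 libraries as 4 group means). Such fold changes understate the change of low genes. P-values were two-sided and adjusted by Benjamini-Hochberg over all genes tested. The thresholds (adjusted p of at most 0.01, absolute log2 fold change of at least 0.5) are those the study used for DCs, with a count model. SDs are given for TPM and limma's SEs for fold changes. Depth was estimated from the steps of low FPKM values; limits from it cover counting error only.

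The members and lists were chosen with earlier results of these data known. All members were named, as were called pathway genes (up to 15), 5 maturation genes, the 3 genes most like each called member, and tested neighbours. In pDCs same-numbered libraries deviated together (correlations of 0.31, 0.392 and 0.206), so the numbers were taken to pair them there; they did not in cDC1s or cDC2s. Alternatives were FPKM, a pseudocount of 0.1, other filters and scalings, no trend, a replicate block, a subset-only fit, each library left out, and an adjusted p of at most 0.05. The scripts were tested on simulated data.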

Additional observations from a re-analysis of the deposited data

Results flagged for a closer look

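For 2 genes the WT and cKO libraries did not overlap in 2 subsets and the fold changes had opposite signs. Over all genes tested, 76.2% did not overlap in cDC1s, 35.5% in cDC2s and 27.5% in pDCs. For Xiap, both cKO cDC1 libraries lay above both WT libraries (log2 fold change 0.51) while all cKO cDC2 libraries lay below all WT libraries (−0.24). The difference of 0.75 between these effects had an adjusted p of 0.0158 (limma, interaction contrast), which did not pass the threshold of 0.01, and with an adjusted p of at most 0.05 it did. For Ripk1, all cKO pDC libraries lay below all WT libraries (−0.18) while both cKO cDC1 libraries lay above both WT libraries (0.10). This difference was not tested, because pDCs and cDC1s are in separate tables. The Ripk1 value in cDC1s was −0.08 relative to the median of all genes and turned negative under 2 scalings.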

How the results depend on the processing

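Fas, Cflar and Birc3 kept their calls in cDC1s under all 21 alternatives. With each library left out in turn, the members called numbered 3 to 5 in cDC1s, 0 in cDC2s and pDCs, 0 to 1 for the difference of effects and 2 to 4 between WT subsets, and the pathway genes called 2 to 11 in cDC1s, 0 to 5 in cDC2s and 0 to 1 in pDCs. Setting the limit on adjusted p to 0.05 and dropping that on the fold gave 1 member in pDCs, 5 in cDC2s, 4 for the difference of effects and 7 between WT subsets, and 5, 18 and 10 pathway genes in pDCs, cDC1s and cDC2s. The share of all genes at this limit was not counted, so these counts cannot be set against it. An unadjusted p under 0.05 (limma) was held by 20.8% of all genes in pDCs, 48.6% in cDC1s and 34.1% in cDC2s. For the difference of effects it was 30.7%, and between WT subsets 55.2%. Without a filter on low values 0, 5 and 2 pathway genes were called in pDCs, cDC1s and cDC2s. In pDCs, 2 pathway genes were called with FPKM, a pseudocount of 0.1, median-of-ratios scaling or quantile normalization, and 0 without the trend.

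The replicate block gave 0 members called in pDCs, 4 in cDC1s (Xiap lost, adjusted p = 0.0144), 0 in cDC2s and 3 between WT subsets, and it changed no other call of a member. In pDCs, the subset where the numbers pair the libraries, it gave 5 of 56 pathway genes, against 2.96% of all genes. In cDC1s the deviations of same-numbered libraries correlated at −0.233. With the cKO cDC1 numbers crossed, an alternative chosen after seeing the data, 3 members and 7 pathway genes were called there.

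Signs that turned all belonged to values that were not called. In pDCs Fadd came to 0.001 (median-of-ratios scaling) and 0.011 (quantile normalization), Traf2 to 0.008 and 0.013. In cDC1s Ripk1 came to −0.073 and −0.085, and Traf2 to −0.135, −0.126 and, with FPKM, −0.031. For the difference of effects Ripk1 came to −0.063 with FPKM, −0.179 and −0.147, and Casp8 to −0.061, −0.176 and −0.129. Between WT subsets Birc3 came to 0.001 with FPKM and 0.13 with median-of-ratios scaling. With single libraries left out, the ranges that crossed 0 were −0.09 to 0.025 (Fadd) and −0.132 to 0.047 (Traf2) in pDCs, −0.148 to 0.212 (Traf2) in cDC1s, and −0.003 to 0.132 (Ripk1) in cDC2s. For the difference of effects they were −0.131 to 0.095 (Fadd), −0.036 to 0.099 (Ripk1) and −0.063 to 0.144 (Casp8), and between WT subsets −0.158 to 0.004 (Birc3) and −0.113 to 0.113 (Fadd). The cause was not tested. With 2 libraries a group, cDC1s limit the precision most, and pDC levels of Fas lie near 1 TPM.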
